A study of Mus musculus with 8 samples.

Results

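The expression of 8 hormone-related genes was examined in the submandibular gland of male mice with and without an additional copy of part of chromosome 16. The 8 genes were the glucocorticoid receptor gene Nr3c1, the mineralocorticoid receptor gene Nr3c2, the estrogen receptor gene Esr1, the thyroid hormone receptor genes Thra and Thrb, the steroid-metabolizing enzyme genes Srd5a1 and Hsd11b2, and the receptor co-chaperone gene Fkbp5. They were taken by name from the GRCm38 annotation as receptors and partners that act on granular ducts, and all 8 had a row among the 54838 genes of the count tables. Total RNA was sequenced in 8 submandibular gland libraries, of which WT 1 to WT 4 came from C57BL/6J males (wild type) and Dp16 1 to Dp16 4 from Dp16 males. The Dp16 line is B6.129S7-Dp(16Lipi-Zbtb21)1Yey/J, a mouse model of Down syndrome in which the stretch of chromosome 16 from Lipi to Zbtb21 is duplicated. No age, treatment or batch was given in the sources used here, and nothing stated that each library came from a separate animal, so p-values measure the spread between these libraries. None of the 8 genes is on chromosome 16.

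Steroid and thyroid hormone receptors are transcription factors that bind a hormone and then act on the genes whose regulatory DNA they occupy. In the rodent submandibular gland, the granular convoluted tubules, the duct segments that make growth factors and kallikreins, depend on androgens and respond to thyroid hormone and glucocorticoids, while the ducts reabsorb sodium under aldosterone. The glucocorticoid and mineralocorticoid receptors are held in a complex with the chaperone HSP90, in which the product of Fkbp5 lowers the affinity for hormone, and Fkbp5 is itself a gene that glucocorticoids induce.

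The libraries held between 90790542 and 115729892 reads in genes, and 25566 to 26709 genes had at least 1 read. The granular tubule markers Egf and Ren1 were abundant in every library, with Egf between 15704 and 61702 CPM (read counts normalised to library size), so the tissue matched its label, although the acinar-list gene Smr3a was at 0 in 4 libraries and at most 1.97 CPM. Marker lists of other cells and of the gland's own segments are given here beside the genotypes. All 13 lymphocyte markers had a positive fold change, 1 of them passing the test. All 13 had an unadjusted edgeR p below 0.05, beside 24.6% of all genes. The groups did not overlap for 7 of them, beside 14.1% of all genes. Their summed level was 31.6 to 40.4 CPM in WT and 50.1 to 127 CPM in Dp16, with none of the 13 at 0 in all libraries. Of 11 granular tubule markers 10 had a negative fold change and 1 passed the test (median log2 fold change -0.50, 2 at an unadjusted p below 0.05). Their sum was 110353 to 187834 CPM in WT and 64997 to 135128 CPM in Dp16. Of 13 tested acinar markers 12 were negative, and none passed the test (median -0.61, from -3.70 to 0.21, 4 at an unadjusted p below 0.05). In bulk tissue, fewer cells of a type and less RNA per cell cannot be told apart.

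Promoter sequences from RefSeq (GRCm38.p6), running from 250 bases before to 50 bases after a transcript start, were matched for 5 of the 8 genes, with 7 promoters in all. They are shown for Fkbp5, the receptor-regulated gene of the group, for the pair of Thrb starts, the only ones of the 7 to hold a motif searched for, and for Esr1, the gene with the lowest p-value of the group. Capitals mark the motif AGAACA, the core of the elements that glucocorticoid and mineralocorticoid receptors recognize, and the motif AGGTCA, the core that thyroid hormone and estrogen receptors recognize. Both were searched on both strands, where they read TGTTCT on the reverse strand for the former and, for the latter, TGACCT. No match in the sequences shown overlapped another.
Thrb, chr14:17660710-17661009, plus strand: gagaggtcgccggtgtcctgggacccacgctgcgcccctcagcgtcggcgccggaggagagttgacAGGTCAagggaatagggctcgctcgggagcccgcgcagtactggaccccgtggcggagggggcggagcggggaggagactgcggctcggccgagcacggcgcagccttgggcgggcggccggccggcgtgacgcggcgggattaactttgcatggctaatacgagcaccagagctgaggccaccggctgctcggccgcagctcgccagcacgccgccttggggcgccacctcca
Thrb, chr14:17981394-17981693, plus strand: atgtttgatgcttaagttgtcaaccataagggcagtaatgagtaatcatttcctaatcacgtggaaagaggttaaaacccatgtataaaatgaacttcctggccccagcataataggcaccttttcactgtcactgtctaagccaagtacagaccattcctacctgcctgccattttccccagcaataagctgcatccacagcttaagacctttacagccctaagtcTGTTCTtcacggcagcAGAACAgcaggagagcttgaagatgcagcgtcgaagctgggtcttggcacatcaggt
Fkbp5, chr17:28486100-28486399, minus strand: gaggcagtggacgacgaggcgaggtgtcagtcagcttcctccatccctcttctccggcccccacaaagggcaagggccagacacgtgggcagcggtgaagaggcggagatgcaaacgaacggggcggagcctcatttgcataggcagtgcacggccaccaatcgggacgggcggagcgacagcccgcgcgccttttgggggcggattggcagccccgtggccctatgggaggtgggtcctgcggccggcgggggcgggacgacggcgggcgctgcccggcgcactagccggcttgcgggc
Esr1, chr10:4611739-4612038, plus strand: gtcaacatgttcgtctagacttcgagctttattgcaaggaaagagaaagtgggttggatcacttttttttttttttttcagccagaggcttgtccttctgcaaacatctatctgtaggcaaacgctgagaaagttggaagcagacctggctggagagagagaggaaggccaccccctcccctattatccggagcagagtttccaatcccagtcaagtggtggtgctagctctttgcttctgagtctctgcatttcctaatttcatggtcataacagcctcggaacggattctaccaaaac
The upstream Thrb promoter held 1 AGGTCA motif and 37 CG dinucleotides, and 95.05% of all promoters of this length held that many or fewer. The downstream Thrb promoter held 2 AGAACA motifs and 4 CG. The Fkbp5 promoter held neither motif and 32 CG, and the Esr1 promoter shown held neither and 6 CG, with 12 CG at the other Esr1 start, beside a median of 7.0 CG over all promoters. AGAACA was present in 18.97% and AGGTCA in 16.26% of the 32851 promoters searched. A match is a run of letters, not a measured binding site.

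Expressed per kilobase of exon, the receptors differed far more from each other than between genotypes. Levels are given as CPM per kb of the exons of all annotated transcripts joined (mean ± SD over the 8 libraries), which understates a gene whose long exons are little used. Fkbp5 had the highest level of the 8 genes, 9.98 ± 2.23 CPM per kb (range 7.58 to 13.2). Nr3c1 followed at 6.58 ± 0.32 (6.06 to 6.997) and Thrb at 5.80 ± 0.45 (5.21 to 6.54), and the ranges of this pair overlapped. Nr3c2 at 3.68 ± 0.47 (2.96 to 4.24) and Thra at 3.54 ± 0.60 (2.60 to 4.31) lay below them and overlapped each other. Srd5a1, which encodes the 5-alpha reductase that turns testosterone into dihydrotestosterone, was at 0.988 ± 0.204. Esr1 was at 0.166 ± 0.055, higher than 14.5% of the genes tested, and Hsd11b2 was close to 0. For comparison, the thyroid receptor partner gene Rxra was at 3.76 ± 0.24 CPM per kb, the vitamin D receptor gene Vdr at 1.89 ± 0.77, and the progesterone receptor gene Pgr at 0.298 ± 0.064.

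None of the 7 genes that could be tested passed the test for a difference between genotypes. The test was edgeR's quasi-likelihood test with Benjamini-Hochberg adjustment over the 19358 genes that passed the expression filter, at an adjusted p below 0.05. Hsd11b2 failed the filter, and of the 7 genes tested 0 were called, beside 0.625% of all genes. DESeq2 and limma-voom, which called 10.3% and 2.05% of all genes, also called 0 of the 7. At an unadjusted p below 0.05 there was 1 gene, Esr1, beside 24.6% of all genes (12.7% higher and 11.9% lower in Dp16). The 4 WT and 4 Dp16 values overlapped for all 7 genes, whereas 14.1% of all genes had groups that did not overlap. Of the 7 fold changes 6 were positive, with a median log2 value of 0.18, beside a median of 0.01 over all genes.

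**Figure D1:**
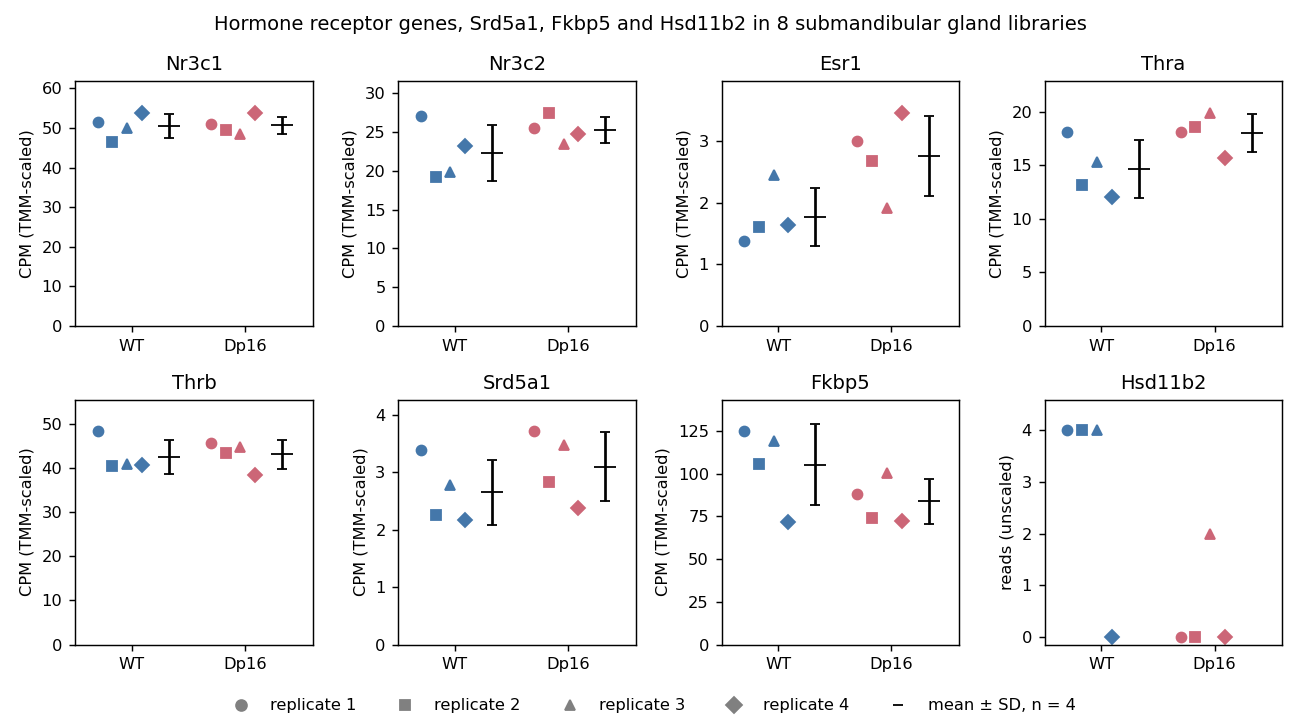
Level of each gene in every library. The vertical axes give CPM scaled by edgeR's TMM factors, except for Hsd11b2, where they give reads; each point is 1 library, and the black bars give the mean ± SD over 4 libraries. The WT and Dp16 points overlap in every panel, and the WT 4 point of Fkbp5, 71.7 CPM, is well below the other WT points.

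The glucocorticoid receptor gene Nr3c1 (ENSMUSG00000024431, chromosome 18) varied little. Its level was 51.4, 46.5, 50.03 and 53.8 CPM in WT 1 to WT 4 and 50.9, 49.4, 48.5 and 53.7 CPM in Dp16 1 to Dp16 4. The group means were 50.4 ± 3.0 and 50.6 ± 2.3 CPM (SD, n = 4 each). The log2 fold change was 0.01 with a 95% interval of -0.15 to 0.16 (edgeR adjusted p = 0.972), so the interval covers changes of up to 1.12-fold. Its sign turned under several alternatives.

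The mineralocorticoid receptor gene Nr3c2 (ENSMUSG00000031618, chromosome 8) encodes the receptor through which aldosterone acts on sodium transport. It was at 27.0, 19.2, 19.9 and 23.2 CPM in WT and 25.5, 27.5, 23.5 and 24.8 CPM in Dp16. WT 2, WT 3 and WT 4 lay below all Dp16 libraries, and WT 1 lay inside the Dp16 range. Its log2 fold change was 0.18 ± 0.11 (SE; edgeR adjusted p = 0.344). The ratio of Nr3c1 to Nr3c2 CPM was 1.90, 2.42, 2.51 and 2.32 in WT and 1.99, 1.80, 2.06 and 2.16 in Dp16. The mean log2 ratio was 0.19 lower in Dp16 (difference -0.19; exact two-sided permutation test over 70 assignments, p = 0.143, adjusted p = 0.143 over 3 ratios). Of the 8 tests with 1 library left out, 7 did not pass (adjusted p up to 0.257). The 1 that did left out WT 1 (difference -0.27, adjusted p = 0.0429 by exact permutation), and since WT 1 was the only WT library within the Dp16 range, the groups are then separate by construction.

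The estrogen receptor gene Esr1 (ENSMUSG00000019768, chromosome 10) had the largest fold change of the 7 genes tested and a low level. It was at 1.37, 1.603, 2.44 and 1.64 CPM in WT and 3.00, 2.68, 1.91 and 3.45 CPM in Dp16. WT 3 exceeded Dp16 3, and the other Dp16 libraries were above every WT library. The means were 1.76 ± 0.47 and 2.76 ± 0.65 CPM (SD, n = 4 each). The log2 fold change was 0.65 ± 0.23 (SE), 1.56-fold with a 95% interval of 1.09 to 2.25, and did not pass the test (edgeR adjusted p = 0.146). The lymphocyte and endothelial marker sums were also higher in Dp16, the endothelial one at 45.7 to 56.1 CPM in WT and 57.1 to 66.6 CPM in Dp16. Of the 6 endothelial markers 5 were positive, 3 had an unadjusted p below 0.05, 0 were called and none was at 0 in all libraries. Other lists went the other way: 2 of 7 fibroblast and 1 of 6 adipocyte markers were positive (medians -0.41 and -1.68). The sums of the fibroblast and adipocyte markers overlapped between genotypes. The part of any of these cells in the Esr1 values was not tested. The related receptor gene Esr2 was under 0.35 CPM in every library.

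**Figure D2:**
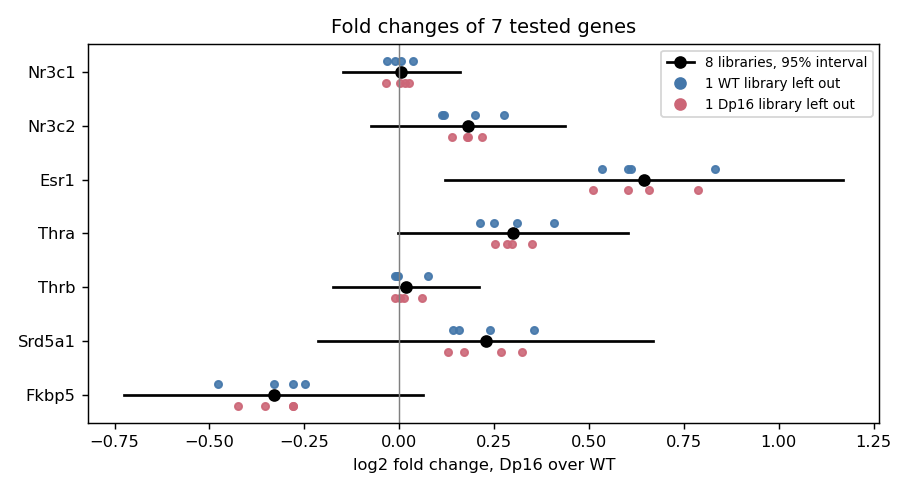
Log2 fold change of Dp16 over WT for the 7 genes tested. Black points and lines are the edgeR estimates with 95% intervals from all 8 libraries, and coloured points are the estimates with 1 WT (blue) or 1 Dp16 (red) library left out. Esr1 keeps a positive value between 0.51 and 0.83 when any library is left out, and Fkbp5 a negative one between -0.48 and -0.25.

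Thyroid hormone acts through the products of Thra and Thrb. Thra (ENSMUSG00000058756, chromosome 11) was at 18.1, 13.2, 15.3 and 12.02 CPM in WT and 18.1, 18.5, 19.9 and 15.6 CPM in Dp16. WT 1 lay inside the Dp16 range and the other WT libraries lay below it. On the log2 scale the fold change was 0.30 ± 0.13 (SE; edgeR adjusted p = 0.208). Thrb (ENSMUSG00000021779, chromosome 14) was at 48.4, 40.5, 41.0 and 40.7 CPM in WT and 45.8, 43.6, 44.9 and 38.6 CPM in Dp16. WT 1 stood above the other 3 WT libraries, which lay between 40.5 and 41.0 CPM. The log2 fold change was 0.02 with a 95% interval of -0.17 to 0.21 (edgeR adjusted p = 0.909), and its sign turned when single libraries were left out.

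The ratio of Thra to Thrb did not overlap between the genotypes. It was 0.374, 0.326, 0.375 and 0.296 in WT (mean 0.343 ± 0.039, SD, n = 4) and 0.395, 0.426, 0.443 and 0.406 in Dp16 (0.417 ± 0.021). Every Dp16 library was above every WT library, with WT 3 and Dp16 1 the nearest pair. For comparison, 14.1% of all genes had groups that did not overlap, and the share among ratios of other gene pairs was not computed. The mean log2 ratio was 0.29 higher in Dp16, or 1.22-fold (exact two-sided permutation p = 0.0286, the smallest that 4 against 4 libraries can give). With adjustment over the 3 ratios compared it was 0.0857 by the same exact permutation test, and the ratio did not pass the threshold. With 1 library left out the difference was 0.22 to 0.34 and the exact permutation p adjusted over the 3 ratios 0.0429 to 0.171. It passed in 1 of the 8 cases, without WT 1, where the lower adjusted value came from the Nr3c1 to Nr3c2 ratio also reaching its smallest p.

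**Figure D3:**
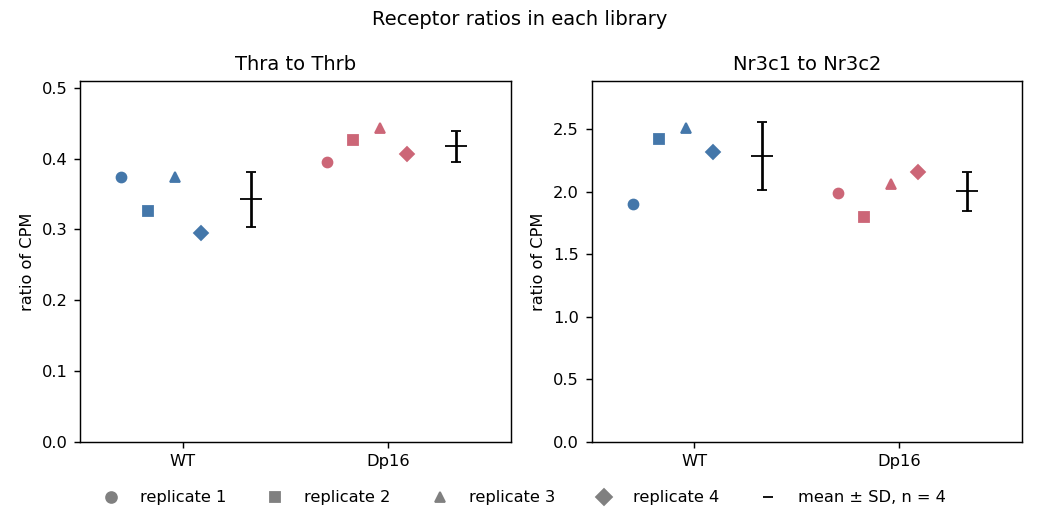
Ratio of Thra to Thrb and of Nr3c1 to Nr3c2 in each library. The vertical axis is the ratio of CPM without correction for gene length, points are libraries, and black bars are the mean ± SD over 4 libraries. The Thra to Thrb points do not overlap (0.296 to 0.375 in WT, 0.395 to 0.443 in Dp16), and the Nr3c1 to Nr3c2 points do.

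Thra shares 263 exonic bases (5.7% of its exonic length) with Nr1d1, the REV-ERB alpha gene on the opposite strand. The kit marks strand, and the counts were checked for it: among genes annotated inside introns of other genes, 107 on the opposite strand had a median of 1.69 reads per kb, against 567 for 759 on the same strand. Nr1d1 was at 9.75, 14.0, 12.1 and 17.3 CPM in WT and 26.5, 7.59, 17.95 and 17.5 CPM in Dp16, with a log2 fold change of 0.39 (edgeR adjusted p = 0.473), and its order over libraries was not that of Thra.

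Srd5a1 (ENSMUSG00000021594, chromosome 13) was at 3.38, 2.26, 2.79 and 2.17 CPM in WT and 3.71, 2.83, 3.48 and 2.38 CPM in Dp16. The ranges overlapped over most of their width. Its log2 fold change was 0.23 ± 0.20 (SE; edgeR adjusted p = 0.49), and the 95% interval of the fold ran from 0.862 to 1.59. The noncoding gene Gm17108 on the same strand shares 16.4% of the Srd5a1 exonic length, so reads there belong to neither gene with certainty.

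Hsd11b2 (ENSMUSG00000031891, chromosome 8) encodes the dehydrogenase that inactivates glucocorticoids and so keeps them from the mineralocorticoid receptor in sodium-absorbing epithelia. It had 4, 4, 4 and 0 reads in WT 1 to WT 4 and 0, 0, 2 and 0 reads in Dp16, or 12 and 2 reads in all. A count of 0 in a library allows up to 3 reads, which here is 0.0260 to 0.0312 CPM, so the gene was at the limit of detection in both genotypes and no fold change is given. Hsd11b1, the reductase that regenerates active glucocorticoid, was at 33.6, 56.0, 64.1 and 31.6 CPM in WT and 26.5, 35.7, 35.3 and 57.1 CPM in Dp16 (log2 fold change -0.26, edgeR adjusted p = 0.587). Its mean of 9.998 CPM per kb stood beside 0.00952 for Hsd11b2.

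Fkbp5 (ENSMUSG00000024222, chromosome 17) was the 1 gene of the 7 with a lower estimate in Dp16. It was at 125, 106, 119 and 71.7 CPM in WT and 87.8, 74.3, 100 and 72.5 CPM in Dp16. WT 1, WT 2 and WT 3 were above all Dp16 libraries, and WT 4 was the lowest library of all 8. The means were 105 ± 24 and 83.7 ± 12.9 CPM (SD, n = 4 each). The log2 fold change was -0.33 ± 0.18 (SE; edgeR adjusted p = 0.27), and -0.48 without WT 4 (adjusted p = 0.146). A pair of noncoding genes annotated on the same strand inside Fkbp5 introns, AC154912.3 and AC154912.5, were at means of 10.2 and 4.11 CPM in WT and 8.12 and 3.60 CPM in Dp16.

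Fkbp5 was set beside 4 other genes that glucocorticoids induce. Tsc22d3, which encodes the anti-inflammatory protein GILZ, was at 30.1, 23.6, 36.7 and 18.2 CPM in WT and 22.4, 23.4, 36.4 and 12.99 CPM in Dp16. Per1, a clock gene with glucocorticoid response elements, was at 16.9, 14.4, 25.1 and 10.2 CPM in WT and 9.63, 6.22, 10.2 and 4.04 CPM in Dp16. The transcription factor gene Klf9 was at 53.6, 46.8, 57.6 and 38.5 CPM in WT and 49.7, 37.1, 54.2 and 35.9 CPM in Dp16. WT 4 was the lowest WT library for these 3 genes, as it was for Fkbp5, and Dp16 4 was the lowest Dp16 library. The remaining gene, Sgk1, was at 241, 161, 204 and 106 CPM in WT and 155, 68.5, 88.2 and 186 CPM in Dp16. For Sgk1 WT 4 was also the lowest WT library, but Dp16 4 was the highest Dp16 library.

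These relations were examined after the values were seen, for 4 genes with exact permutation tests and Benjamini-Hochberg adjustment over the 4. They were computed on log2 CPM with a prior count of 2. Pearson's r with Fkbp5 was 0.905 for Klf9 (exact permutation p = 0.00613, adjusted 0.0123; Spearman's rho 0.762, p = 0.0368, adjusted 0.0490). It was 0.850 for Per1 (exact permutation p = 0.0057, adjusted 0.0123; rho 0.833, p = 0.0154, adjusted 0.0308). It was 0.789 for Tsc22d3 (exact permutation p = 0.0196, adjusted 0.0261; rho 0.833, p = 0.0154, adjusted 0.0308). It was 0.568 for the kinase gene Sgk1 (exact permutation p = 0.142, adjusted 0.142; rho 0.595, p = 0.132, adjusted 0.132). Without WT 1 and WT 4, the libraries farthest from the Fkbp5 median, r was 0.904 for Klf9, 0.962 for Per1, 0.782 for Tsc22d3 and 0.356 for Sgk1. Of 19357 other tested genes, 0.186% had as high an r with Fkbp5 as Klf9, 0.682% as Per1, 1.66% as Tsc22d3 and 8.29% as Sgk1. The 8 points include both genotypes and share the scaling of each library. With the genotype means taken out of both genes, r was 0.914 for Klf9, 0.820 for Per1, 0.797 for Tsc22d3 and 0.429 for Sgk1 (exact permutation within genotypes, adjusted p = 0.0208, 0.0278, 0.0278 and 0.288). Between genotypes Per1 had a log2 fold change of -1.14 (edgeR adjusted p = 0.102), Sgk1 of -0.51 (0.37), Tsc22d3 of -0.19 (0.723) and Klf9 of -0.15 (0.593), and none passed the test with edgeR. Per1 passed with DESeq2 (adjusted p = 0.00781) and with edgeR when the replicate numbers were used as a block (adjusted p = 0.0314), and not with limma-voom (adjusted p = 0.0883).

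**Figure D4:**
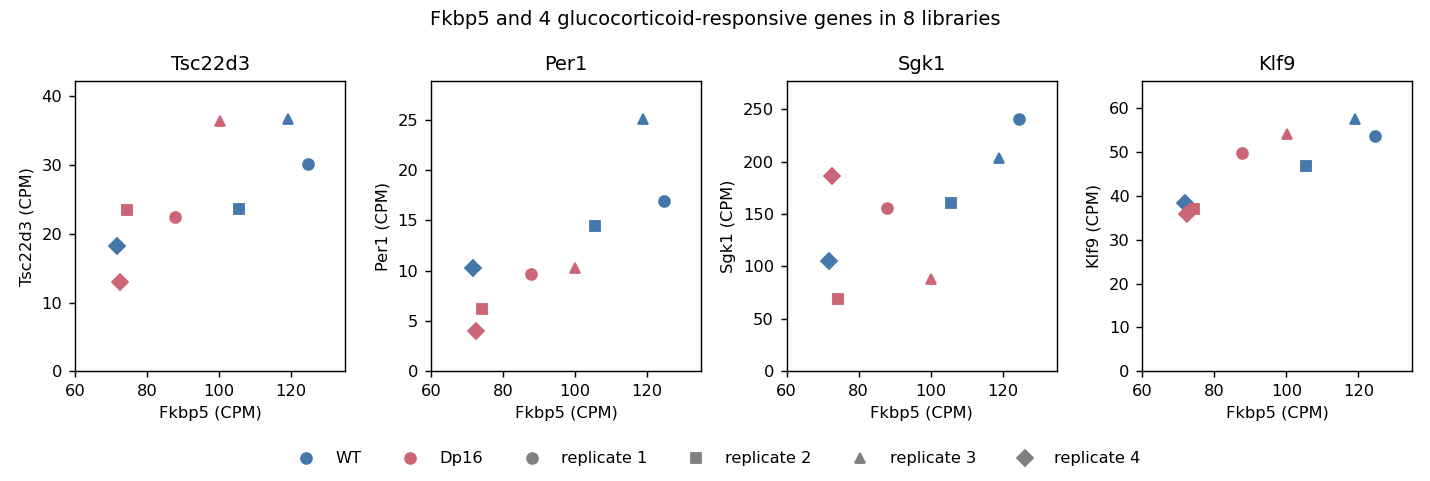
Level of 4 glucocorticoid-responsive genes against Fkbp5, in CPM, with 1 point per library (blue WT, red Dp16, symbols by replicate number). The horizontal axis starts at 60 CPM. WT 4 lies at the low end of Fkbp5 with Dp16 2 and Dp16 4 in each panel. The points follow Fkbp5 for Klf9, Per1 and Tsc22d3 (r of log2 CPM 0.905, 0.850 and 0.789) more closely than for Sgk1 (0.568).

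The genes most like each tested gene across libraries were found by the root mean square difference of log2 CPM, centred on each gene's mean, over 8 libraries and 11946 protein-coding genes. The nearest were Rest for Nr3c1 (0.036), Fam219b for Nr3c2 (0.059), Tmem8b for Esr1 (0.149), Pde5a for Thra (0.060), Klhl15 for Thrb (0.038), Ctsf for Srd5a1 (0.080) and Tbc1d8 for Fkbp5 (0.067). The second nearest were Gabpb2, Tcf7l2, Ncr1, Ogt, Ddhd1, Bbs2 and Pnrc1 in the same order. Of these Ncr1, a natural killer cell receptor gene, was at 1.57 ± 0.26 CPM in WT and 2.07 ± 0.49 CPM in Dp16. None of the 14 genes passed the test between genotypes, beside 0.625% of all genes. They were chosen by likeness over the same libraries to genes that had not passed, so little else could be found.

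The listed chaperone and co-chaperone genes of steroid receptors had lower estimates in Dp16 as a group. All 17 listed genes were tested, all 17 log2 fold changes were negative, and their median was -0.31 beside 0.01 over all genes. None passed the test with edgeR, and 2 were called by each of DESeq2 and limma-voom, beside 10.3% and 2.05% of all genes. The unadjusted threshold of 0.05 was reached by 7 (41.2%), beside 24.6% of all genes. Dnaja1, an HSP70 co-chaperone gene, was at 48.5, 59.2, 54.6 and 64.4 CPM in WT and 37.95, 40.5, 35.7 and 46.6 CPM in Dp16, with no overlap (log2 fold change -0.50, edgeR adjusted p = 0.0685). The HSP40 gene Dnajb1 was at 10.5 ± 0.7 CPM in WT and 7.91 ± 0.61 CPM in Dp16, also with no overlap (-0.41, edgeR adjusted p = 0.0709), and Sgta had -0.27 (0.121). Fkbp4, the immunophilin gene that competes with Fkbp5 for the receptor complex, was at 108, 134, 123 and 145 CPM in WT and 99.2, 134, 79.3 and 99.2 CPM in Dp16 (-0.31, edgeR adjusted p = 0.253). Hspa1a and Hspa1b are near-identical copies whose reads can be split between them. With any 1 library left out, 16 or 17 of the 17 stayed negative, with medians from -0.41 to -0.24. How far these genes vary together was not tested, so the 17 signs are not 17 separate observations.

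Of 25 coregulator genes 1 passed the test with edgeR, beside 0.625% of all genes. Tob1, an antiproliferative protein gene, was at 55.0, 56.9, 56.7 and 55.8 CPM in WT and 40.4, 38.2, 30.7 and 40.6 CPM in Dp16. It fell by 0.58 on the log2 scale (SE 0.09, edgeR adjusted p = 0.0388), and the adjusted p was between 0.0379 and 0.120 with 1 library left out. It passed without Dp16 2 or Dp16 3 and not without any of the others (WT 1, WT 2, WT 3, WT 4, Dp16 1 or Dp16 4). Nrip1, a corepressor gene inside the duplicated segment, was at 47.8, 42.3, 43.8 and 42.6 CPM in WT and 56.2, 62.5, 63.4 and 53.3 CPM in Dp16. Its groups did not overlap, and the log2 fold change of 0.42 ± 0.08 (SE), 1.33-fold, missed the threshold (edgeR adjusted p = 0.0544, DESeq2 0.00167, limma-voom 0.0416). The arginine methyltransferase gene Carm1 had -0.36 (edgeR adjusted p = 0.0796). Over the 25 genes 10 were positive, the median was -0.03, and 10 (40%) had an unadjusted p below 0.05, beside 24.6% of all genes. DESeq2 called 5 and limma-voom 2, beside 10.3% and 2.05% of all genes.

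Of 39 other nuclear receptor genes 31 were tested and 0 passed, with 12 positive, a median of -0.06 and 8 (25.8%) at an unadjusted p below 0.05, a share near the 24.6% of all genes. DESeq2 called 5 of them and limma-voom 1, beside 10.3% and 2.05% of all genes. The immediate-early orphan receptor gene Nr4a2 was at 6.33, 10.3, 10.8 and 6.06 CPM in WT and 2.99, 4.56, 2.74 and 3.96 CPM in Dp16, with no overlap (log2 fold change -1.24, edgeR adjusted p = 0.0577, DESeq2 7.25e-05, limma-voom 0.0438). Nr4a1 had -0.56 (0.0915) and Nr2f6 -0.40 (0.11). Vdr was at 10.5, 6.26, 10.03 and 6.50 CPM in WT and 12.9, 11.8, 19.6 and 7.90 CPM in Dp16 (0.65, edgeR adjusted p = 0.187), and Dp16 3 was the highest. The estimate for Vdr was 0.39 without Dp16 3. Rxra had -0.01 and Pgr 0.00, and both signs turned under alternatives.

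Among genes that supply the hormones, none passed the test with edgeR, beside 0.625% of all genes. With DESeq2 1 steroid metabolism gene (Sult1e1) passed, beside 10.3% of all genes, and with limma-voom 0 passed, beside 2.05%. Of 35 steroid metabolism genes listed 33 had a row and 16 were tested, with 4 positive and a median of -0.18. An unadjusted p below 0.05 was reached by 4 (25%), beside 24.6% of all genes. The estrogen sulfotransferase gene Sult1e1 was at 14.2, 3.24, 39.8 and 2.26 CPM in WT and 2.94, 0.797, 1.44 and 2.56 CPM in Dp16 (log2 fold change -2.94, edgeR adjusted p = 0.105). WT 3 was the highest library, and without it the estimate was -1.78. Hsd17b11 had 0.57 (0.129) and Hsd17b10 -0.30 (0.12). Of 11 thyroid hormone transport and metabolism genes tested 5 were positive, and 1 (9.09%) had an unadjusted p below 0.05. Their median was -0.01, which turned to at most 0.03 when WT 2, WT 3, Dp16 1 or Dp16 4 was left out. The organic anion transporter gene Slco1a4 had a log2 fold change of 1.32 (edgeR adjusted p = 0.142) at under 0.54 CPM. The amino acid transporter gene Slc7a8 had -0.38 (0.257), and Crym, which encodes a thyroid hormone-binding protein of the cytosol, had -0.86 (0.293) and -0.18 without WT 3, its highest library. Dio2, the deiodinase gene that activates thyroid hormone, was at 1.57 ± 0.38 and 1.31 ± 0.53 CPM, and Dio1 was under 0.31 CPM and failed the filter.

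Genes that respond to the hormones did not move in 1 direction. Of all genes, for comparison with the lists below, edgeR called 0.625%, DESeq2 10.3% and limma-voom 2.05%. An unadjusted edgeR p below 0.05 was reached by 24.6% of all genes. Of 33 glucocorticoid-responsive genes tested 17 were positive (median 0.07, 7 or 21.2% at an unadjusted p below 0.05), and 0 passed the test with edgeR, 4 with DESeq2 and 0 with limma-voom. The median was negative with limma-voom (-0.08) and without WT 2, WT 4 or Dp16 3 (lowest -0.12). The phosphatase gene Dusp1 had a log2 fold change of -1.93 (edgeR adjusted p = 0.0766), with 16.6, 6.52, 15.7 and 3.37 CPM in WT and 2.74, 2.10, 3.96 and 2.26 CPM in Dp16. The fasting-responsive genes Pdk4 and Angptl4 had positive values, 2.18 (0.0862) and 1.73 (0.0832), and both were highest in Dp16 3, at 127 and 15.3 CPM. Without Dp16 3 the estimate for Pdk4 was 1.35. Of 20 aldosterone and sodium transport genes 6 were positive (median -0.10, 7 or 35% at an unadjusted p below 0.05), and 1 passed with edgeR, 4 with DESeq2 and 1 with limma-voom. Tmprss2, a serine protease gene inside the duplicated segment, rose by 0.91 (edgeR adjusted p = 0.0437), and with 1 library left out its adjusted p was between 0.0386 and 0.144, passing only without Dp16 2 or Dp16 4. Scnn1g, the gamma subunit gene of the epithelial sodium channel, was at 29.4, 22.9, 28.6 and 28.2 CPM in WT and 19.8, 21.1, 17.1 and 23.5 CPM in Dp16 (-0.42, edgeR adjusted p = 0.091).

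Of 16 thyroid hormone-responsive genes tested 4 were positive (median -0.25, 6 or 37.5% at an unadjusted p below 0.05), and 0 passed with edgeR, 3 with DESeq2 and 1 with limma-voom. The mitochondrial carrier gene Ucp3 was at 2.48 ± 0.92 CPM in WT and 10.8 ± 6.5 CPM in Dp16, with no overlap (log2 fold change 2.12, edgeR adjusted p = 0.0667). The lipogenic genes Fasn and Acaca had -0.69 (0.0745) and -0.35 (0.128). Adipocyte markers were near 0, their sum being 3.00 to 5.71 CPM in WT and 2.26 to 4.79 CPM in Dp16 (1 of 6 positive, 0 called, 3 at an unadjusted p below 0.05, none at 0 in all libraries). Of 18 estrogen-responsive genes tested 11 were positive (median 0.10, 4 or 22.2% at an unadjusted p below 0.05), and 0 passed with edgeR, 2 with DESeq2 and 1 with limma-voom. The list includes Nrip1, a gene inside the duplicated segment. Nrip1 was the 1 called by limma-voom (adjusted p = 0.0416) and was among those called by DESeq2 (0.00167). Susd3 had 0.69 (edgeR adjusted p = 0.0796) at 0.936 ± 0.048 CPM in WT and 1.51 ± 0.26 CPM in Dp16, and Pgr, a usual marker of estrogen receptor activity, had 0.00. The lactoferrin gene Ltf had 3.09 (0.173), with 7.12 CPM in Dp16 3 and at most 0.940 CPM elsewhere, and 0.64 without Dp16 3.

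Clock genes were listed because Per1 and Nr1d1 tie glucocorticoids to time of day, and sampling times were not given in the sources used here. Of 20 clock genes 12 were positive (median 0.16), and 6 (30%) had an unadjusted p below 0.05, beside 24.6% of all genes. With edgeR 1 passed, with DESeq2 4 and with limma-voom 1, beside 0.625%, 10.3% and 2.05% of all genes. Without Dp16 1, 8 were positive and the median was -0.08. The repressor gene Nfil3 fell by 1.74 on the log2 scale (edgeR adjusted p = 0.0276), and with 1 library left out its adjusted p was between 0.0239 and 0.0999, passing only without WT 4 or Dp16 2. Bhlhe40 was at 54.3, 56.4, 79.9 and 54.2 CPM in WT and 44.0, 16.1, 31.5 and 28.2 CPM in Dp16 (-1.03, edgeR adjusted p = 0.0832). Hlf had 0.77 (0.0797) with no overlap between groups. Several genes stand in more than 1 list, among them Per1, Nrip1, Sgk1, Klf9 and Tsc22d3, so the lists are not independent.

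**Figure D5:**
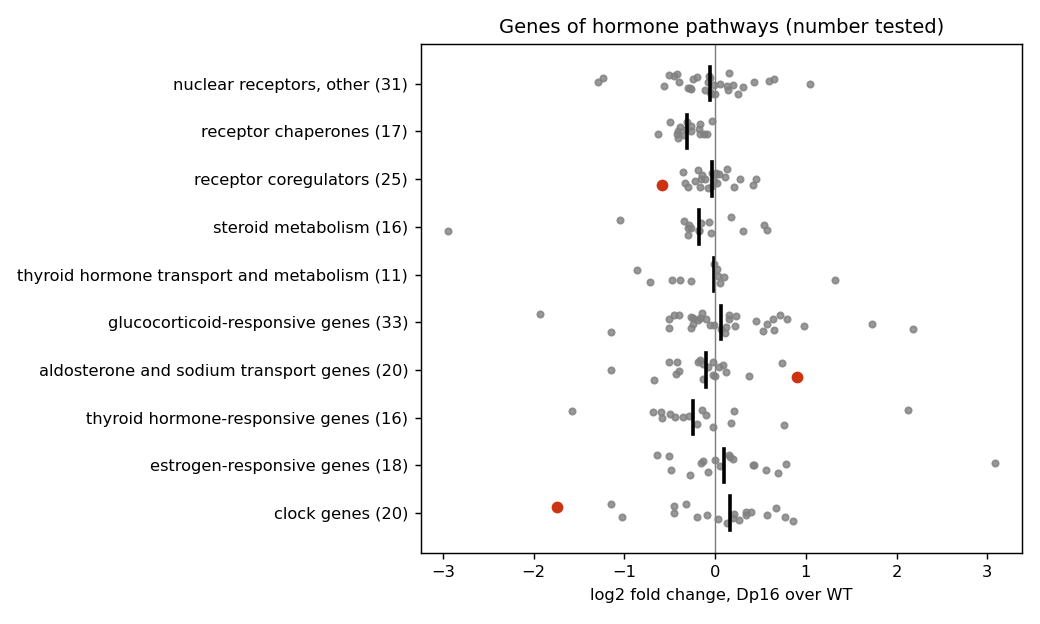
Log2 fold change of Dp16 over WT for the genes of 10 lists, with the number tested in brackets. Grey points are genes, red points are genes with an edgeR adjusted p below 0.05, and black bars are list medians. All 17 receptor chaperone points lie below 0, while the glucocorticoid-responsive genes spread from -1.93 to 2.18 around a median of 0.07.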

How the data were processed

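Total RNA depleted of ribosomal RNA was made into stranded libraries, per the labels' protocols. Read counts per gene were deposited by the authors, with STAR, HTSeq and GRCm38 named in the submitters' processing notes, beside FastQC and DESeq2. The annotation release and the counting options were not given in the sources used here. The 5 rows that name no gene held 58.1% to 65.4% of each file's total and were left out. Gene IDs were matched to GENCODE M21 (54809 of 54838 matched). Counts were filtered with filterByExpr, scaled by TMM and tested with edgeR 4.0.16 (R 4.3.3), 4 WT against 4 Dp16 libraries with no covariate. CPM are TMM-scaled, and ratios and correlations with Fkbp5 used log2 CPM with a prior count of 2 and exact permutation tests. DESeq2 1.42.0, limma 3.58.1 (voom with sample weights), other scalings, no filter, a replicate block and left-out libraries were alternatives. A count of 0 allows up to 3 reads, and floors cover counting error only. The ratio of Hsd11b2 to Nr3c2 enters the adjustment over 3 ratios and is not reported, since Hsd11b2 was at its floor.

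The 8 genes, the gene lists and the tests were chosen with earlier results of these data known. Genes named were the 8, 14 related genes chosen by name, up to 3 tested genes of lowest p in each of 10 lists, and the 2 genes with the most similar profile for each of the 7 tested genes, and others named were chosen after their values were seen. Some related genes are not reported here and were left out of the lists. In addition, 11 lists of cell type markers were examined: of the striated, intercalated and excretory duct list 9 of 14 genes were positive (median 0.03), of the myoepithelial list 3 of 7 (-0.02), of the macrophage and dendritic list 6 of 7 (0.13), of the fibroblast list 2 of 7 (-0.41), of the skeletal muscle list 3 of 5 (0.11) and of the neuron and Schwann list 3 of 4 (0.22), with 0 called in each by edgeR and 0, 2, 0, 2, 1 and 3 at an unadjusted p below 0.05 in that order.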

Additional observations from a re-analysis of the deposited data

Results flagged for a closer look

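Thrb in WT had 1 library far from the others. WT 1 was at 48.4 CPM and the other 3 WT libraries were between 40.5 and 41.0 CPM, so the gap was 0.939 of the range, above Dixon's 95% critical value for 4 samples. It was the only one of 46 groups of 4 libraries examined, and chance flags about 1 group in 20. The Thra to Thrb ratio without WT 1 is given with that result.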

How the results depend on the processing

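None of the 7 tested genes passed the adjusted threshold under any of the 14 alternatives to the edgeR fit, and of their 98 fold change values under them 90 kept their direction and 8 reversed, all of Nr3c1 and Thrb. At an unadjusted p below 0.05 there were 2 of the 8 genes with TMM computed without the 1% most abundant genes, 2 with limma-voom, 2 without the filter on low counts, 3 with the replicate block and 0 to 2 with 1 library left out. The number of all genes called was 121, and 223 without the filter, 396 with limma-voom, 776 with the replicate block, 1996 with DESeq2 and 0 to 446 with 1 library left out (0 without WT 2 or Dp16 1). To look for pairing, each gene's genotype mean was taken out of log2 CPM, and the remainders were correlated between WT and Dp16 libraries. These remainders correlated at 0.191, 0.129, 0.0777 and 0.105 for same-numbered libraries, and at -0.225 to 0.141 for differently numbered ones. Not every library correlated best with its own number. The labels state no pairing, so the numbers were taken to name samples only, and these values cannot settle whether they pair libraries. With the replicate block, sign flips of the Thra to Thrb ratio gave an exact permutation p of 0.125, the smallest that 4 pairs allow. With 1 library left out that difference was 0.22 to 0.34, and that of Nr3c1 to Nr3c2 -0.27 to -0.14. Reversed log2 fold changes were those of Nr3c1 with DESeq2 (-0.00412), Pgr with RLE size factors (-0.0013), the replicate block (-0.0479) and DESeq2 (-0.00617), Rxra with limma-voom (0.00324), Rest with RLE (-0.00111) and DESeq2 (-0.00638), Klhl15 with the trimmed TMM (0.00157) and limma-voom (0.0137), and AC154912.5 with limma-voom (0.10). With 1 library left out the ranges that crossed 0 were Nr3c1 -0.0348 to 0.0358, Thrb -0.0119 to 0.075, Pgr -0.20 to 0.17, Rxra -0.0496 to 0.0335, Tsc22d3 -0.47 to 0.00315, Rest -0.0435 to 0.0158, Klhl15 -0.0282 to 0.0272, AC154912.3 -0.52 to 0.0772 and AC154912.5 -0.38 to 0.25. The cause was not tested. Depth limits Hsd11b2, with 12 reads in WT and 2 in Dp16, and Dio1 and Esr2 at under 0.35 CPM.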
